A study of Mus musculus with 6 samples.

Results

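The genes described here are 9 classical interferon-stimulated genes of the mouse, Ifit1, Ifit2, Ifit3, Isg15, Irf7, Oas1a, Rsad2, Usp18 and Bst2. They were taken by name as textbook targets of type I interferon, but with earlier results of these data known. Each of the 9 symbols matched 1 of the 58601 rows of the deposited expression table. The samples were 6 liver RNA libraries, all from Mdr2 knockout mice, 3 of them given vehicle and 3 given lycorine, a plant alkaloid. Mice were 8 weeks old and were treated for 2 weeks. The titles write the genotype as Mdr2-/- and the growth protocol as Mdr2-HKO, sex and dose are not given in the labels, and all 6 libraries share the genotype, so neither the genotype nor the untreated healthy liver enters the comparison. The study asked how lycorine acts in intrahepatic cholestasis, and loss of Mdr2 (encoded by Abcb4), the phospholipid transporter of the bile canaliculus, is a common mouse model of it. Nothing in the labels states that each library came from its own animal, so a p-value here reflects spread among libraries, part of which may be technical.

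Type I interferons are secreted when a cell senses foreign or misplaced nucleic acid. They bind the receptor pair Ifnar1 and Ifnar2, the kinases Jak1 and Tyk2 then pass the signal on, and a transcription factor complex that includes Irf9 binds the interferon-stimulated response element in the promoters of target genes. In the liver, hepatocytes, Kupffer cells and endothelial cells can all respond, and the products block viral translation, degrade RNA, tether virions or feed back on the pathway.

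The core letters of the response element were looked for in RefSeq promoters (build GRCm38.p6, 250 bases before to 50 bases after each gene's start). The core searched was GAAANNGAAA, on both strands, where it reads TTTCNNTTTC on the other strand, and copies were allowed to overlap. A promoter sequence was found for 8 of the 9 genes and held the core in 6 of them, while 3.44% of all 32851 promoters of that length did. The 6 stretches are shown because they hold the letters these promoters have in common, a match being no proof of a working site, each 5′ to 3′ on the strand of its gene with the matches in capitals.
Isg15: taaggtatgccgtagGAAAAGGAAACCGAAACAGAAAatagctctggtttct
Oas1a: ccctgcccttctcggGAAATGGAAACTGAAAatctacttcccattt
Bst2: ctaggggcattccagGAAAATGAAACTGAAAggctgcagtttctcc
Rsad2: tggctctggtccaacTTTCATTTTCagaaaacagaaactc
Ifit3: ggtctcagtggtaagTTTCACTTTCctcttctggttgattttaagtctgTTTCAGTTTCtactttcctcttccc
Ifit1: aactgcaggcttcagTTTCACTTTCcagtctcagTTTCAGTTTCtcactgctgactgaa

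The Isg15 stretch lies at chr4:156200860-156200911 on the minus strand, where 3 copies run into each other and the first begins 78 bases before the gene's start. The stretch of Oas1a, at chr5:120907515-120907560, and that of Bst2, at chr8:71537572-71537617, are also on the minus strand and hold 2 overlapping copies each, beginning 20 and 130 bases before the start. Rsad2 has 1 copy at chr12:26456548-26456587 (minus strand). Ifit3 at chr19:34583358-34583431 and Ifit1 at chr19:34640770-34640828 (plus strand) have 2 separate copies each, in the reverse orientation. No match was found in the windows of Ifit2 and Irf7, which says only that these letters are not there. Of the 54 other interferon-stimulated genes listed below that had a promoter sequence, 21 held the core. The 348 tested genes with the core had a median log2 fold change of 0.27 between lycorine and vehicle, and the 9051 tested genes with a promoter sequence 0.24.

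The 9 genes did not all differ in 1 direction between lycorine and vehicle. Usp18, the protease that takes ISG15 off its targets and dampens the interferon receptor, had a higher level in each lycorine library than in any vehicle library, and so had Irf7, the transcription factor that amplifies interferon production. Ifit1 had a lower mean in lycorine, but its groups overlapped, as did those of the remaining genes. None of them passed the test across all rows (limma on log2(TPM + 1), Benjamini-Hochberg adjusted p under 0.05). TPM scale each gene for its length and each library to the same total, so levels can be compared between genes.

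A pair of facts about the whole table set the scale of the comparison. The median log2 fold change of all 13854 tested rows was 0.22, so differences are also given relative to that median, and it was -0.03 with median-of-ratios scaling, 0.03 with protein-coding nuclear genes alone and 0.07 with quantile normalization. Vehicle 3 stood apart in its makeup. There 51.5% of TPM came from protein-coding nuclear genes and albumin, the main hepatocyte product, was at 5039 TPM, against 63.7% to 78.1% and 11824 to 19785 TPM in the other libraries. Abcb4 had reads in every library, at 43.5, 10.8 and 12.25 TPM (vehicle) and 8.96, 8.32 and 32.2 TPM (lycorine), highest in vehicle 1 and lycorine 3. These values do not check the labels, because a row per gene hides what the knockout allele still transcribes. Sequencing depth is unknown, since TPM keep no record of it.

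The genes were expressed at very unequal levels, and the order is a description with no test. Bst2 was by far the most abundant, with 87.5 to 342.7 TPM over the 6 libraries, followed by Irf7 with 30.1 to 43.5 TPM. In every library Bst2 was above Irf7 and Irf7 above Isg15, and the ranges of these neighbours did not touch. Isg15 (2.00 to 29.9 TPM), Oas1a (7.62 to 18.5 TPM) and Usp18 (6.99 to 18.7 TPM) followed with overlapping ranges, so their order is not settled. Ifit1 (1.62 to 7.74 TPM) and Ifit3 (1.47 to 3.76 TPM) came next and also overlapped. Ifit2 (0.05 to 0.70 TPM) and Rsad2 (0.04 to 0.38 TPM), among the most inducible genes of the response in infected cells, were close to the resolution of the table.

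**Figure D1:**
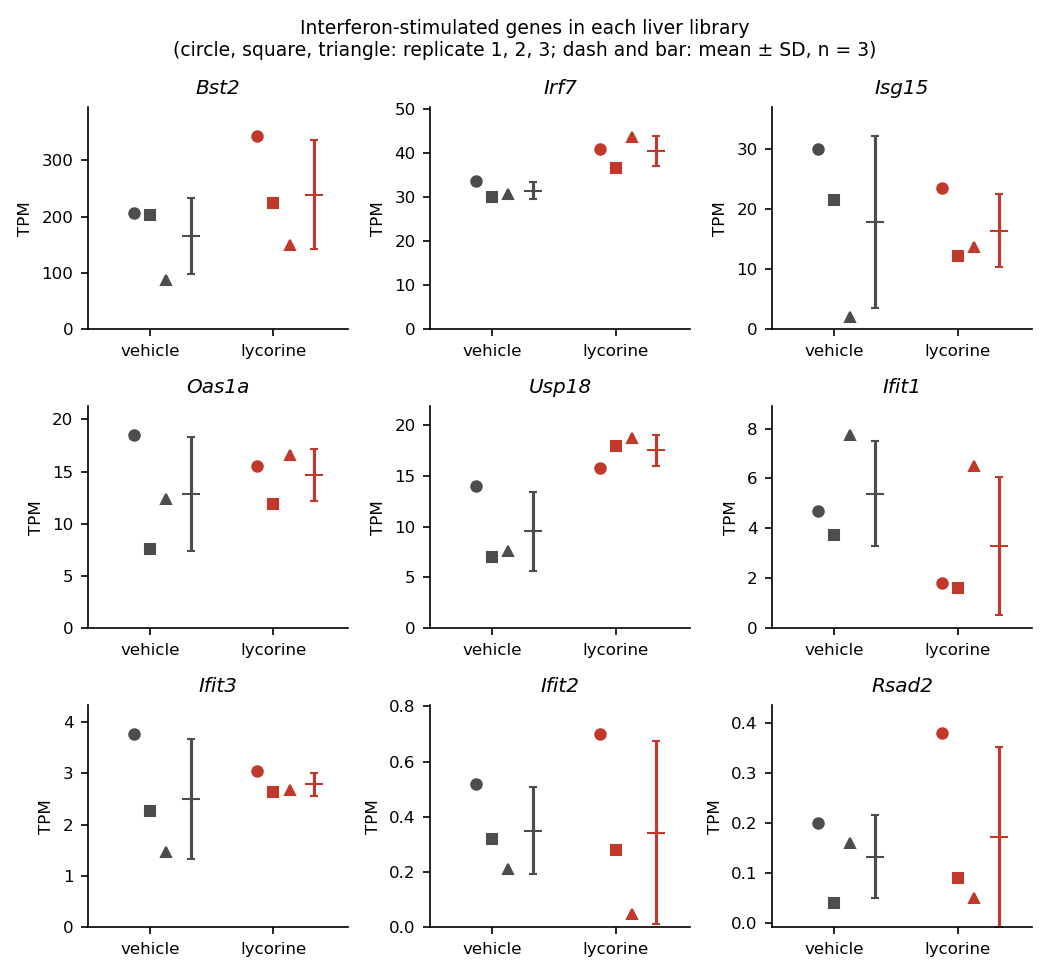
TPM of the 9 genes in each library, on linear axes that differ between panels; points are single libraries (circle, square and triangle for replicates 1, 2 and 3) and the dash with its bar is the mean ± SD of 3 libraries. The groups are apart in Irf7 and Usp18, vehicle 3 is the low point of Isg15 at 2.00 TPM and of Bst2 at 87.5 TPM, and all panels but those of Irf7 and Usp18 overlap.

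Usp18 had the smallest limma p of the 7 tested genes. The gene lies on chromosome 6 of GRCm38 from 121245906 to 121270917. It was at 13.97, 6.99 and 7.63 TPM (vehicle) and 15.8, 17.96 and 18.7 TPM (lycorine). All 3 lycorine libraries were above all 3 vehicle libraries, with vehicle 1 the nearest of them. The means were 9.53 ± 3.86 and 17.5 ± 1.51 TPM (SD, n = 3 each), 1.83 times as high in lycorine, and the log2 fold change was 0.87 (SE 0.33, 95% interval 0.10 to 1.64) or 0.64 relative to all rows. The unadjusted limma p was 0.0318 and the adjusted p 0.832, so the difference did not pass. The separation held with median-of-ratios scaling, with quantile normalization and with protein-coding genes alone, where the log2 fold changes were 0.58, 0.69 and 0.64. The unadjusted limma p values there were 0.0446, 0.0513 and 0.0578. Relative to all rows the log2 fold change was 0.55 to 0.77 when 1 library was left out. The unadjusted limma p was then 0.0044 without vehicle 1, and 0.0581 to 0.0973 without any other library.

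Irf7, on chromosome 7 from 141262706 to 141266481, varied least, its highest library being 1.45 times its lowest. It was at 33.6, 30.1 and 30.7 TPM (vehicle) and 40.97, 36.7 and 43.5 TPM (lycorine). The groups did not overlap, with means of 31.5 ± 1.89 and 40.4 ± 3.44 TPM (SD, n = 3 each). The log2 fold change was 0.35 (SE 0.26, 95% interval -0.25 to 0.95; limma adjusted p = 0.832), which is only 0.13 above the median of all rows. With median-of-ratios scaling it was 0.05, with quantile normalization 0.08 and with protein-coding genes alone 0.09, and under each of these scalings the groups overlapped. Irf7 shares 45 exon bases of 3776 with Phrf1 on the opposite strand, and Usp18 shares 124 of 2790 with the noncoding gene Gm44148. Whether the counting used strand is not given in the sources used here.

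Separation upward was common in this table. Among all tested rows 9.6% had every lycorine library above every vehicle library and 1.01% had every one below, while of the 7 genes of this group that were tested 2 were separate upward and 0 downward. At an unadjusted p under 0.05, 1 of the 7 was higher in lycorine (Usp18), against 2.79% of all rows, and at an adjusted p under 0.05 the share was 0 of 7 against 0.0% of all rows. With quantile normalization and with protein-coding genes alone, 0 of the 7 had an unadjusted p under 0.05. The unadjusted calls of all rows split into 386 higher and 90 lower as deposited, 125 and 191 after median-of-ratios scaling, 137 and 158 after quantile normalization, and 144 and 104 among protein-coding genes. Without vehicle 2 they split into 250 higher and 316 lower. With 3 libraries against 3, the exact permutation test (two-sided, over 20 assignments) cannot go below 0.1. It gave 0.1 for Usp18 and for Irf7, 0.45 when adjusted over the 9 genes, and 0.3 to 0.9 for the others.

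Bst2, or tetherin, holds budding virions at the cell surface and also marks plasmacytoid dendritic cells. The gene is on chromosome 8 from 71534255 to 71537456. It was at 206.1, 202.1 and 87.5 TPM (vehicle) and 342.7, 223.9 and 150.1 TPM (lycorine). Lycorine 1 was the highest and vehicle 3 the lowest, and lycorine 3 lay inside the vehicle range. The means were 165.2 ± 67.3 and 238.9 ± 97.2 TPM (SD, n = 3 each). The log2 fold change, 0.55, had an SE of 0.46 (limma adjusted p = 0.832). Without vehicle 3 the log2 fold change was 0.15, below the median of all rows.

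Isg15, the ubiquitin-like protein that is attached to other proteins during the response, was the least even of the 7 tested genes. It is on chromosome 4 from 156199424 to 156200818. It was at 29.9, 21.6 and 2.00 TPM (vehicle) and 23.4, 12.2 and 13.6 TPM (lycorine). Vehicle held both the highest and the lowest library, which differ 14.97-fold. The means were 17.8 ± 14.3 and 16.4 ± 6.10 TPM (SD, n = 3 each), yet the log2 fold change was positive, 0.39 (SE 0.84, 95% interval -1.56 to 2.34; limma adjusted p = 0.920), since a mean of logs weighs the low library more. Without vehicle 3 it was -0.65, and with array quality weights -0.40.

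Oas1a makes the short RNA messenger that switches on RNase L. It is on chromosome 5 from 120896256 to 120907521 and was at 18.5, 7.62 and 12.4 TPM (vehicle) and 15.6, 11.9 and 16.6 TPM (lycorine). Vehicle 1 was the highest and vehicle 2 the lowest, with the lycorine libraries between them. Lycorine minus vehicle came to 0.25 on the log2 scale (SE 0.37, limma adjusted p = 0.878), or 0.03 relative to all rows, and -0.04 with median-of-ratios scaling. Of the 50-base words in its transcripts 57.6% also occur in Oas1g, so reads of these neighbours can be hard to assign. Together they reached 26.9, 9.92 and 22.8 TPM (vehicle) and 23.3, 17.8 and 24.7 TPM (lycorine), and the groups overlapped as well.

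The IFIT proteins bind viral RNA ends and stall its translation, and their genes sit side by side on chromosome 19. Ifit1, from 34640871 to 34650009, was at 4.69, 3.73 and 7.74 TPM (vehicle) and 1.82, 1.62 and 6.48 TPM (lycorine). Lycorine 1 and lycorine 2 were below every vehicle library, but lycorine 3 was above vehicle 1 and vehicle 2. On the log2 scale lycorine minus vehicle came to -0.70 (SE 0.48, 95% interval -1.82 to 0.43; limma adjusted p = 0.832), or -0.92 relative to all rows. That value was -1.43 relative to all rows without lycorine 3, and -0.64 without lycorine 1. The unadjusted limma p was 0.0239 without lycorine 3 (adjusted p 0.851), and 0.157 to 0.464 without any other library. Of its 50-base words 7.13% also occur in Ifit1bl1 or Ifit1bl2.

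Ifit3, from 34583531 to 34588731, was at 3.76, 2.26 and 1.47 TPM (vehicle) and 3.04, 2.63 and 2.68 TPM (lycorine). The 3 lycorine libraries lay within the vehicle range. On the log2 scale lycorine minus vehicle came to 0.16 (SE 0.35, limma adjusted p = 0.920), or -0.06 relative to all rows. Ifit3 shares 51.2% of its 50-base words with its copy Ifit3b, and both together averaged 2.89 ± 1.23 TPM (vehicle) and 3.26 ± 0.251 TPM (lycorine), SD over 3 libraries each.

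Ifit2 and Rsad2 did not reach the mean of 1 TPM needed for testing. Ifit2, from 34550694 to 34576419, was at 0.52, 0.32 and 0.21 TPM (vehicle) and 0.70, 0.28 and 0.05 TPM (lycorine). Rsad2, or viperin, an antiviral enzyme of the lipid droplet and endoplasmic reticulum, is on chromosome 12 from 26442746 to 26456452. It was at 0.20, 0.04 and 0.16 TPM (vehicle) and 0.38, 0.09 and 0.05 TPM (lycorine). Lycorine 1 was the highest library of both and the groups overlapped. When every row above 0 was tested, their limma adjusted p values were 0.974 and 0.942, and with the depth unknown a difference at such levels was not detectable.

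**Figure D2:**
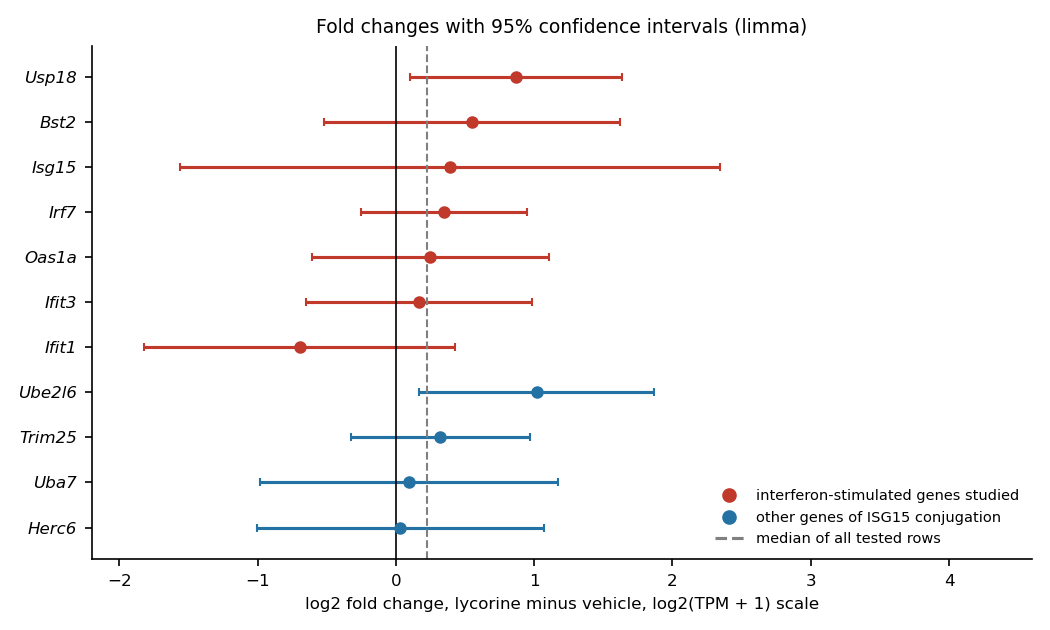
Log2 fold changes of the 7 tested genes (red) and of the 4 other genes of ISG15 conjugation (blue), lycorine minus vehicle on the log2(TPM + 1) scale, with unadjusted 95% confidence intervals from limma; the dashed line is the median of all tested rows, 0.22. The intervals of Usp18 and Ube2l6 lie above 0 and include the dashed line, and all the others include 0.

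Among themselves the genes were loosely coupled. Of the 21 pairs of tested genes, the highest correlations over the 6 libraries were those of Ifit3 with Isg15 (r = 0.89) and Irf7 with Usp18 (r = 0.88). Ifit1 had negative values with all but 1 of the rest, with r between -0.85 (with Bst2) and 0.13 (with Oas1a). These are descriptions over 6 libraries that also share the makeup of each library. No library was high or low throughout: vehicle 2 was the lowest library in 4 of the 9 genes and vehicle 3 in 3, and vehicle 3 was also the highest in Ifit1. The median deviation of the 7 tested genes, minus that of all rows, came to 0.08, 0.26 and -0.33 (vehicle) and to -0.01, 0.00 and 0.27 (lycorine).

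Taking the 7 tested genes as a group, 6 had a log2 fold change above 0 (4 with median-of-ratios scaling, 5 with protein-coding genes alone), as had 69.9% of all rows, and 5 exceeded the all-row median. The group's median log2 fold change was 0.35 against 0.22 for all rows, an excess of 0.13. Leaving out vehicle 3 turned that excess to -0.058 and weighting the libraries by quality to -0.019, and after quantile normalization it was 0.0069. Without vehicle 3, 4 of the 7 were above 0 and 3 above the median of all rows.

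**Figure D3:**
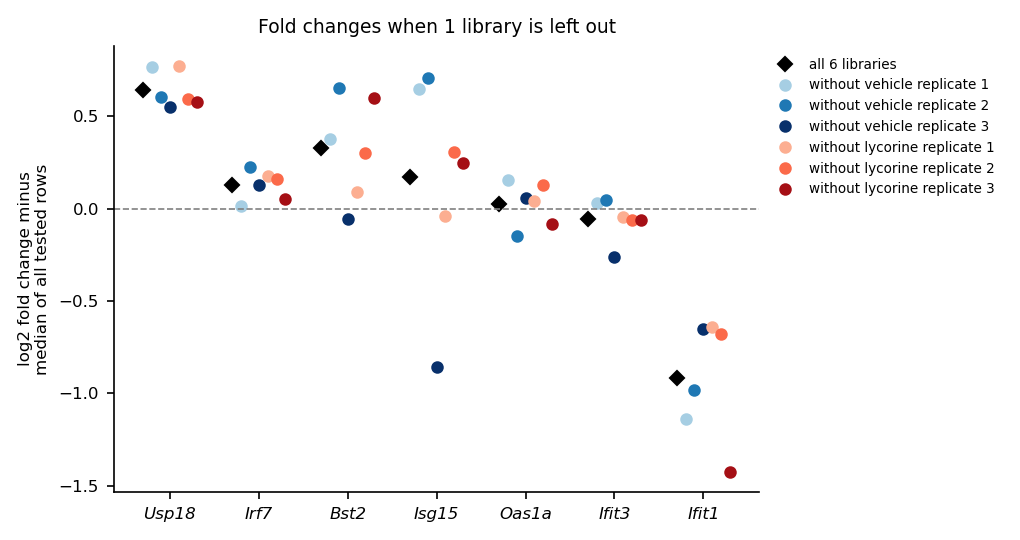
Log2 fold change of each tested gene minus the median of all tested rows, from all 6 libraries (black diamond) and with each library left out in turn (blue shades for vehicle, red shades for lycorine). Usp18 stays between 0.55 and 0.77, while Isg15 runs from -0.86 without vehicle 3 to 0.71 without vehicle 2.

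The enzymes that attach and remove ISG15 were read next, because Usp18 and Isg15 belong to that cycle. Uba7 and Herc6 were added after their values were seen. Ube2l6, the conjugating enzyme, was at 10.97, 10.95 and 5.93 TPM (vehicle) and 26.6, 18.7 and 14.2 TPM (lycorine). Each lycorine library was above each vehicle library, with a log2 fold change of 1.02 (SE 0.36) and an unadjusted limma p of 0.0251, but the adjusted p was 0.832. The groups stayed apart with protein-coding genes alone and overlapped with median-of-ratios scaling and quantile normalization. Uba7, the activating enzyme, was at 25.4, 10.1 and 32.5 TPM (vehicle) and 16.7, 21.5 and 28.9 TPM (lycorine). Herc6, the main mouse ligase for ISG15, was at 0.51 to 1.36 TPM in vehicle and 0.80 to 1.21 TPM in lycorine. Of the 6 genes of the cycle, Isg15, Usp18 and Trim25 included, 6 were above 0, against 69.9% of all rows. Of the 6, 4 were above the median of all rows and 0 passed the test.

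A wider list held 69 further interferon-stimulated genes. Of these 59 were tested, of which 42 were above 0, 27 above the median of all rows and 0 passed. Their median log2 fold change was 0.17, or -0.05 relative to all rows, which became 0.047 without vehicle 1 and -0.12 without vehicle 3. Every lycorine library was above every vehicle library in 3 of the 59, namely Ube2l6, Parp12 and Ifih1, and below in 0, against 9.6% and 1.01% of all tested rows. Ifih1, a sensor of long double-stranded RNA that was picked out after its values were seen, was at 1.05, 1.16 and 1.43 TPM (vehicle) and 1.72, 1.62 and 1.94 TPM (lycorine). Zbp1, a sensor of unusual nucleic acid structures, was at 9.60, 4.72 and 1.34 TPM (vehicle) and 12.0, 8.37 and 7.32 TPM (lycorine). Ifitm3, which blocks virus entry and was the most abundant of the genes named from this list, was at 1040, 947.8 and 209.7 TPM (vehicle) and 1374, 999.4 and 872.1 TPM (lycorine). In these the low library was again vehicle 3, and the log2 fold changes were 0.95 and 0.84. Trafd1, Ly6e, Lgals9, Parp12 and Nmi, with overlapping groups except in Parp12, had log2 fold changes of 0.43 to 0.95, each with a limma adjusted p of 0.832.

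Of the OAS and IFIT relatives 6 of 14 were tested, and 5 of the 6 were above 0. Oas1c was at 1.56, 0.48 and 0.38 TPM (vehicle) and 1.73, 1.6 and 2.77 TPM (lycorine), and the groups did not overlap. Oas2, a larger synthetase, was at 4.44, 1.34 and 4.58 TPM (vehicle) and 1.66, 1.25 and 2.30 TPM (lycorine), with a log2 fold change of -0.62. Oasl2 had 0.38. None of the 6 passed the test, and their median was 0.01 relative to all rows.

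The ligands were nearly all unread. Of 21 interferon genes 17 were listed at 0 in every library, among them Ifnb1 and the numbered Ifna genes searched. Ifnab and Ifnz were read in 1 lycorine library and Ifng in 1 vehicle library, at most at 0.08 TPM. Ifnl3, a type III interferon, was the exception, at 8.63, 1.24 and 0 TPM (vehicle) and 1.46, 3.51 and 0 TPM (lycorine), with no separation of the groups. These levels say nothing about interferon protein or about a source outside the liver.

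Of 17 receptor and signalling genes 15 were tested, of which 9 were above 0, 3 above the median of all rows and 0 passed. Ifnar2 was at 97.6, 59.2 and 29.5 TPM (vehicle) and 87.5, 68.7 and 50.03 TPM (lycorine). Irf9 was at 8.49, 4.18 and 1.96 TPM (vehicle) and 8.45, 5.30 and 4.35 TPM (lycorine). In both, and in the interferon gamma receptor subunit Ifngr2 (log2 fold change 0.55), vehicle 3 was the lowest library and the groups overlapped. Of 18 tested genes of nucleic acid sensing 8 were above 0, 6 above the median of all rows and 0 passed. Mavs, the mitochondrial adaptor of the RNA sensors, was at 5.55, 5.78 and 6.24 TPM (vehicle) and 11.2, 7.04 and 6.71 TPM (lycorine), without overlap. Aim2, a sensor of cytosolic DNA, had a log2 fold change of -0.995 with overlapping groups.

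Genes induced chiefly by interferon gamma were read beside them. Of 24 listed 12 were tested, of which 8 were above 0, 6 above the median of all rows and 0 passed. Iigp1, a GTPase of the response, was at 26.9, 28.3 and 19.6 TPM (vehicle) and 34.2, 28.6 and 29.6 TPM (lycorine), just without overlap. Igtp and Irgm1, of the same GTPase family, had log2 fold changes of 0.76 and 0.32. The list's median was -0.02 relative to all rows.

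Markers of other cells were read in the same libraries, and in this bulk tissue fewer cells of a type and less RNA per cell cannot be told apart. Of the tested Kupffer cell, sinusoidal endothelial and neutrophil markers 0 passed the test (smallest limma adjusted p 0.832 in each list). Of all 13854 tested rows 0 passed either. The per-library score of 12 tested Kupffer cell markers, the median deviation minus that of all rows, was 0.52 to 0.53 in vehicle and -0.79 to -0.35 in lycorine. Of these 12 markers 11 were below 0, against 4174 of the 13854 tested rows. Among them 6 were separate downward and 1 upward, against 1.01% and 9.6% of all tested rows. At an unadjusted limma p under 0.05, 6 were lower and 0 higher in lycorine, against 90 and 386 of all rows. Fcna was at 15.8, 14.4 and 16.4 TPM (vehicle) and 2.27, 3.69 and 5.14 TPM (lycorine). The summed level of all 14 listed Kupffer markers was 430.9 to 731.6 TPM in vehicle and 402.5 to 635.8 TPM in lycorine, and overlapped. Scores of 7 tested sinusoidal endothelial markers and of 3 tested neutrophil markers were also lower in each lycorine library than in each vehicle library. Gene by gene, 2 of the 7 and 1 of the 3 were separate downward and 0 upward, against 1.01% and 9.6% of all tested rows. In each of these 2 lists 1 marker was lower at an unadjusted limma p under 0.05. The summed endothelial markers were at 49.1 to 161.2 TPM in vehicle and 53.4 to 94.3 TPM in lycorine, and the neutrophil markers at 6.98 to 28.6 and 1.83 to 4.48 TPM, with Ly6g at 0 in all libraries. Their part in the levels of Usp18, Irf7 and Ube2l6, which were higher where these markers were lower, was not tested.

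Plasmacytoid dendritic cells, the classical interferon producers, were checked because Bst2 marks them. Of 10 markers 7 were tested, 5 of them below 0, and the sum of all 10 was 146.1 to 348.3 TPM in vehicle and 262.4 to 659.6 TPM in lycorine. Much of that sum is Bst2 itself and Ly6d, which was at 116.3, 22.8 and 12.5 TPM (vehicle) and 301.0, 71.2 and 105.9 TPM (lycorine). Markers of monocytes, T and NK cells, B cells, bile ducts, stellate cells and hepatocytes had overlapping scores. Of 6 tested T and NK cell markers 5 were below 0, against 4174 of the 13854 tested rows, and 0 were above the median of all rows. Their median was -0.82 relative to all rows, and 0 passed the test. The summed hepatocyte markers were at 45180, 44419 and 16387 TPM (vehicle) and 44866, 49300 and 32328 TPM (lycorine). Vehicle 3, the low library of Isg15 and Bst2, was thus also the lowest in hepatocyte markers, and the part of this in their values was not tested.

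**Figure D4:**
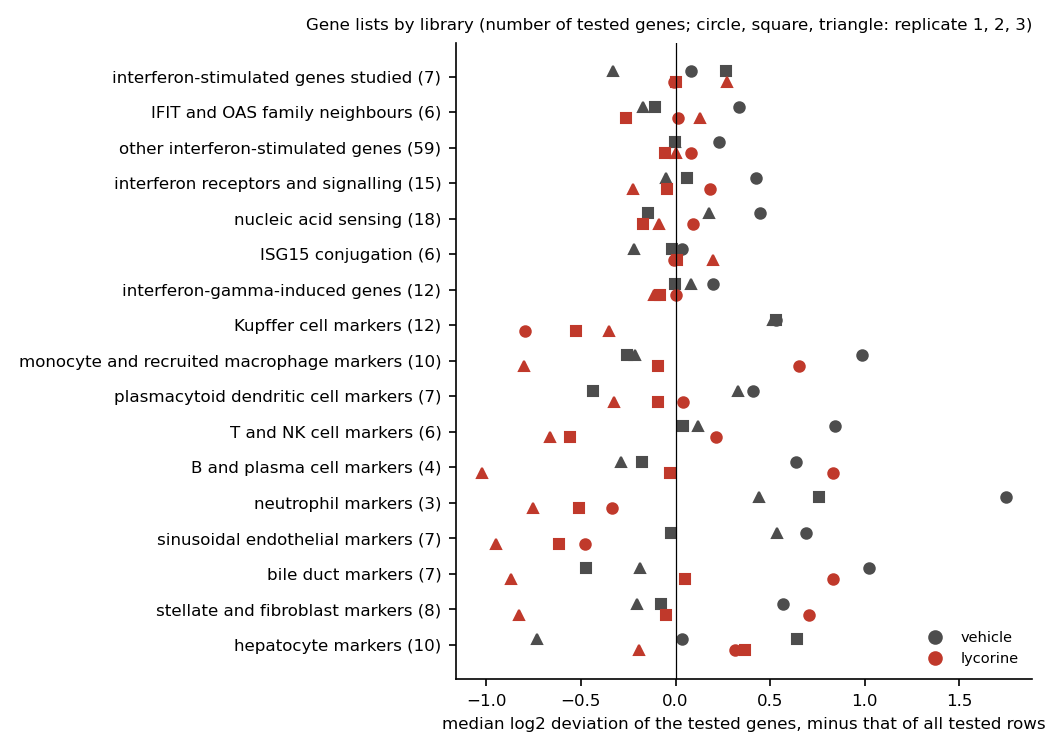
For each gene list, the median log2 deviation of its tested genes (number in brackets) from their mean over the libraries, minus the same median over all tested rows; grey is vehicle and red lycorine, with circle, square and triangle for replicates 1, 2 and 3. The interferon lists overlap between the groups, while Kupffer, neutrophil and sinusoidal endothelial markers are lower in all 3 lycorine libraries.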

How the data were processed

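Liver RNA libraries were made from 1.3 µg total RNA with the NEBNext Ultra kit for Illumina, per the labels' protocols. The authors deposited a single table. FPKM is in its name, yet every column sums to between 999999.5 and 1000000.4, so the deposited values are TPM, and the test planned for FPKM was run on them. The sources used here do not name the aligner, quantifier or annotation, and GRCm38 and mm10 are the builds in the submitters' processing notes. Columns without a drug name were taken as vehicle, since no other label was left.

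Symbols and coordinates came from GENCODE M21, which holds 52083 of 55416 Ensembl identifiers. A row was tested where its mean reached 1 TPM, with limma 3.58.1 (R 4.3.3) on log2(TPM + 1), with a variance trend, two-sided, adjusted by Benjamini-Hochberg over all 13854 rows. Such fold changes understate the change of weakly expressed genes. Permutation tests used scipy 1.17.1. The fit was checked on simulated data. Named genes were the 9 studied, the 8 with the smallest p of the wider list, 3 of each other interferon list, 2 of each marker list and the 5 rows of most similar profile, of which 1 is not reported here. The rest of the ISG15 cycle, the family relatives and Ifih1 were added after their values were seen. The genes and the 18 lists were chosen with earlier results of these data known. Alternatives covered pseudocount, filter, scaling, variance model, library weights, a replicate block and left-out libraries.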

Additional observations from a re-analysis of the deposited data

How the results depend on the processing

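Limma called 0 of the 7 tested genes in each of the 17 alternatives, except that Ifit1 and Ifit3 were not tested with a minimum mean of 5 TPM, which left 5. Across all rows limma called 0 of 13854 (476 had an unadjusted p under 0.05), 1 at pseudocount 0.1, 1 using array quality weights, 0 to 2 when 1 library was left out and 5 without both vehicle 3 and lycorine 3. The number of the 7 genes above the median of all rows was 5, and 3 with array quality weights, 3 without both vehicle 3 and lycorine 3, and 3 to 6 when 1 library was left out. Their median relative to all rows was 0.13, and 0.0069 with quantile normalization, -0.019 with array quality weights, -0.059 without both libraries and -0.058 (without vehicle 3) to 0.23 (without vehicle 2) with 1 left out. The median of the wider list was -0.05, -0.12 (without vehicle 3) to 0.047 (without vehicle 1) with 1 left out, and 0.11 with no filter, where rows near 0 lower the median of all rows to 0.05. Direction changed in 3 genes: Isg15 (0.39) was -0.40 with array quality weights, -0.55 without both vehicle 3 and lycorine 3 and -0.65 to 1.03 with 1 library left out. Ifit3 (0.16) was -0.048 with median-of-ratios scaling, -0.014 with protein-coding genes alone, -0.041 without both libraries and -0.060 to 0.41 with 1 left out. Oas1a (0.25) was -0.035 with median-of-ratios scaling and -0.053 to 0.54 with 1 left out. Apart from fewer libraries, the cause was not tested.

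Vehicle and lycorine share replicate numbers, and same-numbered libraries correlated in their deviations at 0.31, 0.05 and 0.29. Vehicle 1 with lycorine 3 gave -0.24 and vehicle 3 with lycorine 1 gave -0.34, while vehicle 2 correlated best with lycorine 1 (0.21). Whether the numbers mark pairs is not settled by these values, and the main fit did not take them as pairs. With the replicate block limma called 0 rows and 0 of the 7 genes, 1033 rows had an unadjusted p under 0.05 against 476, and Usp18 had a log2 fold change of 0.87 with an adjusted p of 0.595. Depth is unknown, which limits Ifit2 and Rsad2 most.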

Other observations

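Rows whose profile over the 6 libraries was most like the mean standardised profile of the 7 tested genes are described here by 4 genes outside the interferon lists. Among 12171 named rows those with the highest Pearson's r included Slc30a6, Rsad1, Anp32e and Tmco6, with r from 0.99 to 0.997, and 654 rows had r above 0.9. The 7 tested genes, each a part of that mean profile, had r from -0.30 (Ifit1) to 0.898 (Ifit3). Slc30a6, a zinc transporter, was at 5.41, 3.22 and 2.83 TPM in vehicle and at 5.29, 4.13 and 5.13 TPM in lycorine. The mean profile was lowest in vehicle 3, then vehicle 2. With so few libraries, and with the makeup of each library shared by all rows, these values are descriptions.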
